A study of Homo sapiens with 4 samples.

Results

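The genes described here are 10 regulators of entry into and exit from mitosis: CDK1, the cyclins CCNA2 and CCNB2, the kinase WEE1, the phosphatases CDC25A, CDC25B and CDC25C, the kinases PLK1 and AURKA, and CDC20. They were chosen by name, with earlier results of these data known. They are the rows carrying these symbols in both deposited tables of raw read counts, 10 of the 58051 gene identifiers listed there. All 10 were found, and all 10 passed the filter on low counts. The study measured poly(A) RNA in MCF10A, a human breast epithelial cell line that is established in culture and does not form tumours. The labels give no genetic change of the cells in either group, and both groups were transfected with 50 nM siRNA and 4 uL of the transfection reagent RNAiMAX, with medium changed after 6 h and RNA collected at 48 h. The siLMNA group (2 libraries) received siRNA against LMNA, which encodes the nuclear envelope proteins lamin A and lamin C, and the siLacZ group (2 libraries) received control siRNA against bacterial LacZ. Nothing in the labels says that the libraries are from different cultures, so the p-values reflect the spread between these samples alone, and that spread may be technical. Whether the siRNA was 1 sequence or a pool is not given in the sources used here.

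Entry into mitosis is driven by the kinase CDK1 bound to a cyclin. The kinases WEE1 and PKMYT1 hold CDK1 inactive by phosphorylation, the CDC25 phosphatases remove those phosphates, and AURKA and PLK1 push this switch forward by activating CDC25 and marking WEE1 for destruction. Exit from mitosis follows when the ubiquitin ligase APC/C, first with its activator CDC20 and later with FZR1, marks cyclins and the separase inhibitor securin for degradation. Many of these genes are transcribed mainly in G2 and mitosis, through promoters in which the DREAM, MYBL2 and FOXM1 complexes act on CHR elements and the factor NF-Y acts on CCAAT boxes, so their RNA is low in resting cells. In a bulk library, fewer cells in G2 or mitosis and less RNA per such cell cannot be told apart.

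The proximal promoters are shown because these genes have that shared promoter class as background and because their RNA levels differed together. RefSeq promoter windows (assembly GRCh38.p14, 250 bases before to 50 bases after each annotated start) were found for 8 of the 10 genes, with 15 windows in all; AURKA and WEE1 were not matched. The windows were searched on both strands for the CHR letters TTTGAA and TTTAAA, the CCAAT box CCAAT and the E2F site TTTGGCGC or TTTCGCGC. TTTAAA reads the same on both strands, and none of the spellings searched contains another. The 6 stretches printed here run from 100 bases before the start to base 20 after it, 5′ to 3′ on the gene's own strand. Where a gene had several windows, the one with a TTTGAA nearest the start was taken. The stretches are those of the 5 genes with TTTGAA and of CDC25A, which held no CHR match but held an E2F match. CCNA2 and CDC25B, which held neither TTTGAA nor an E2F match, are not printed. Capitals mark the motif matches (letters such as ATTGG or TTCAAA are a match on the opposite strand). Their positions are chr10:60778378-60778497 (plus strand) for CDK1, chr15:59105046-59105165 (plus) for CCNB2, chr5:138331785-138331904 (minus) for CDC25C, chr16:23678789-23678908 (plus) for PLK1, chr1:43358881-43359000 (plus) for CDC20 and chr3:48188398-48188517 (minus) for CDC25A.
CDK1: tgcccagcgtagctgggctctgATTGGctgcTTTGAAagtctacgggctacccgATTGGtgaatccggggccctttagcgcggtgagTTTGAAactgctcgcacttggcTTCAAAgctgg
CCNB2: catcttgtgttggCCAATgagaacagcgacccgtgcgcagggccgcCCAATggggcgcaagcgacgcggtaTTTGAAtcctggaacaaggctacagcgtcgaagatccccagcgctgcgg
CDC25C: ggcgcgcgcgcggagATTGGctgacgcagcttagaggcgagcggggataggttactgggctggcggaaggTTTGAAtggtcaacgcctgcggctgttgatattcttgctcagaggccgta
PLK1: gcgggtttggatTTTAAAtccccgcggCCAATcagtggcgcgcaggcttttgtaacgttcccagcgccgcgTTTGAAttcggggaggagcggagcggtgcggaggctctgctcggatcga
CDC20: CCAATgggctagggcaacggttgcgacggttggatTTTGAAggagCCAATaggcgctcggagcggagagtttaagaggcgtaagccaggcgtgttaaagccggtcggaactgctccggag
CDC25A: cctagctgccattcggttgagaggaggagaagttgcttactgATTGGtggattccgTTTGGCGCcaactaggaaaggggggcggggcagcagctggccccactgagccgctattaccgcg

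The letters TTTGAA occurred in at least 1 window of 5 of the 8 matched genes, namely CDK1, CCNB2, CDC25C, PLK1 and CDC20. Of these matches, the one nearest before the start had its first base 29 bases before the start in CCNB2 and in PLK1, 30 before it in window 4 of CDC25C, 65 before it in CDC20 and 13 before it in window 2 of CDK1, which held another at 69 bases before it. These RefSeq starts lay inside the GENCODE span of the gene, by 26 bases in CDC20, 68 in CCNB2, 147 in window 2 of CDK1, 1233 in PLK1 and 6551 in window 4 of CDC25C. Windows 1 and 3 of CDC25C, with starts 0 and 14 bases inside the span, held no match to any of the letters searched. By window, 7 of the 15 held TTTGAA, against 15.2% of all 35116 RefSeq windows; by gene the share was 18.2% of the 27305 genes with a window. Either CHR spelling was present in 6 of the 8 genes, against 27.9% of all genes. A CCAAT box was present in 11 of the 15 windows, against 34.6% of all windows, and in a window of each of the 8 genes, against 39.7% of all genes. The 8 genes have more windows per gene than RefSeq genes as a whole, which raises their share by gene. Windows of the same gene can overlap, so the counts by window are not of separate sites. Windows 2 and 4 of CDC25C overlap and hold the same TTTGAA and a CCAAT box in common. TTTGAA and CCAAT stood in the same window in 5 of the 8, against 7.26% of all genes. The E2F letters were found in CDK1 and CDC25A, against 1.40% of all genes. CDC25B, which has 4 windows, held no TTTGAA but held TTTAAA in window 4, at base 33 after the start. CCNA2 held a CCAAT box 56 bases before its start and neither of the CHR spellings searched. Other CHR spellings were not searched, so CCNA2 is not shown to lack a CHR element. A match describes letters in a window and not a bound site, and nothing on binding was measured.

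**Figure D1:**
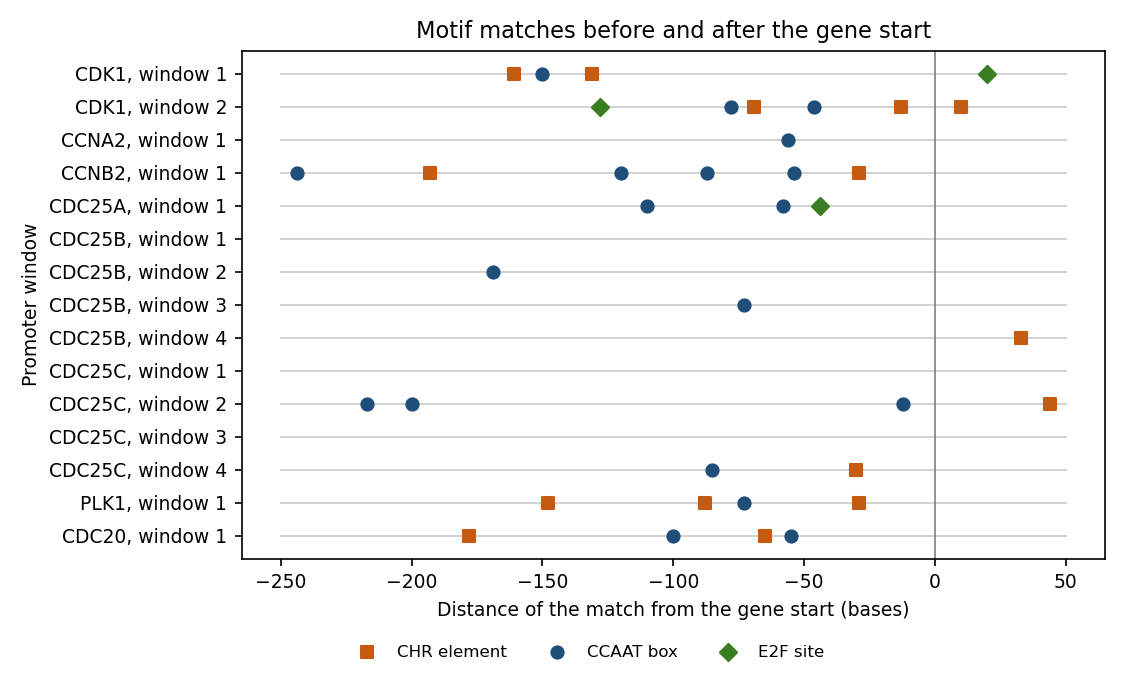
Each horizontal line is 1 RefSeq promoter window of a matched gene, with the distance in bases from the annotated start on the x axis (0 is the start) and symbols at the first base of each match to the CHR, CCAAT or E2F letters on either strand. CCNB2, PLK1 and window 4 of CDC25C each hold a CHR match 29 or 30 bases before the start, with a CCAAT box 54, 73 or 85 bases before it.

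Library totals were 42809595 and 46191091 counts in siLacZ 1 and 2 and 44472819 and 44236621 in siLMNA 1 and 2. Mitochondrial genes took 0.204% to 0.253% of counts and did not separate the groups. Levels are given as CPM, counts divided by the library total and scaled with TMM factors to a common library size, and fold changes come from edgeR's quasi-likelihood test on counts with Benjamini-Hochberg adjustment over all 18540 genes tested, a call being an adjusted p under 0.05. LMNA itself, the siRNA target, read 480 and 524 CPM in the siLacZ libraries and 61.1 and 58.1 CPM in the siLMNA libraries (log2 fold change -3.07, SE 0.077, edgeR adjusted p = 2.98e-15), so the labels and the target went together. All 12 markers of MCF10A and basal epithelium on a list were detected; 8 rose and 3 fell, and the list's sum was 20887 and 22112 CPM in siLacZ and 33504 and 31039 CPM in siLMNA, so marker levels also moved with the group. Of 8 fibroblast markers, 5 could be tested and 4 of these rose (26.5% of all tested genes were called higher). The summed level went from 175 and 178 CPM in siLacZ to 766 and 767 CPM in siLMNA, with COL3A1 at 0 in every library. Most of that sum was DCN, at 160 and 163 CPM in siLacZ and 629 and 639 CPM in siLMNA. The part of these marker shifts in the results that follow was not tested. The endothelial list summed to 12.4 and 13.0 CPM in siLacZ and 16.2 and 15.6 CPM in siLMNA, and the leukocyte list to 25.3 and 25.7 against 33.9 and 28.0 CPM, nearly all of it CD14, with CD3E and MS4A1 at 0. Of 7 luminal breast markers PGR was at 0, and the list's sum was 684 and 676 CPM in siLacZ and 1280 and 1196 CPM in siLMNA.

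All 10 regulators fell in the siLMNA libraries. The losses ranged from 4.16-fold for CDC20 to 1.18-fold for WEE1, and the median log2 fold change was -1.67. For comparison, 54.3% of all tested genes were called in either direction, 27.8% were called lower, and the median over all tested genes was -0.01. Because the 10 were chosen with earlier results known, this comparison describes them and is not a test of them as a set. Against a minimum change of 1.5-fold, which 9.36% of all tested genes passed as lower, 8 of the 10 were called; CDC25B and WEE1 were not. Summed over the 10 genes, the level was 692 and 746 CPM in siLacZ 1 and 2 and 304 and 309 CPM in siLMNA 1 and 2.

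**Figure D2:**
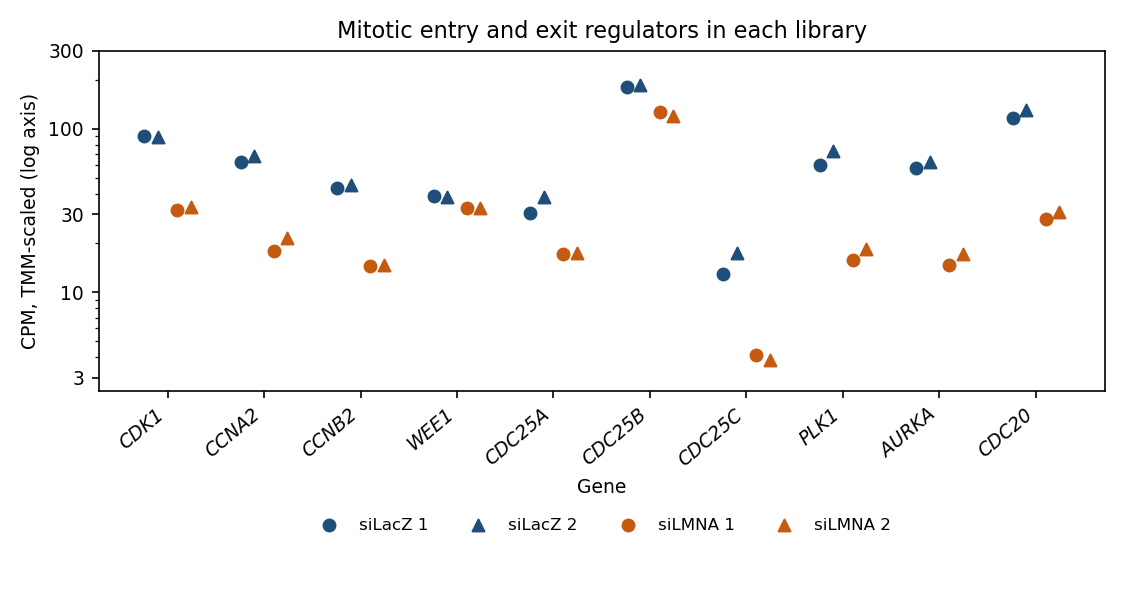
Levels of the 10 regulators in each of the 4 libraries, in TMM-scaled CPM on a log axis; blue symbols are siLacZ and orange siLMNA, circles replicate 1 and triangles replicate 2. The gap between blue and orange symbols is widest in CDC20 (116 and 130 against 28.1 and 31.1 CPM) and narrowest in WEE1 (38.8 and 38.1 against 32.7 and 32.6 CPM).

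CDK1 (ENSG00000170312, chr10:60778331-60794852, hg38, plus strand), the catalytic kinase that drives entry into mitosis, had 4014 and 4207 counts in siLacZ 1 and 2 and 1363 and 1430 counts in siLMNA 1 and 2. In scaled units these were 89.8 and 89.0 CPM against 31.9 and 33.3 CPM. The libraries within each group were nearly level and the groups stood far apart. CDK1 fell 2.74-fold (log2 fold change -1.46, SE 0.074, edgeR adjusted p = 3.20e-11).

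CCNA2 (ENSG00000145386, chr4:121816444-121823933, minus strand), cyclin A2, pairs with CDK2 in S phase and with CDK1 in G2. It read 62.2 and 68.6 CPM in the siLacZ libraries and 18.0 and 21.3 CPM in the siLMNA libraries. The groups did not overlap, and CCNA2 fell 3.33-fold (log2 fold change -1.73, SE 0.092, edgeR adjusted p = 5.55e-11). CCNA2 shares 578 bases with EXOSC9 on the opposite strand, and since the use of strand is not given, reads in that stretch cannot be told apart. EXOSC9 itself had 1350 and 1294 counts in siLacZ and 654 and 736 in siLMNA, lower in the same libraries.

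CCNB2 (ENSG00000157456, chr15:59105078-59125045, plus strand) encodes cyclin B2, a mitotic partner of CDK1. Its levels were 43.4 and 45.5 CPM in siLacZ and 14.4 and 14.7 CPM in siLMNA. Both groups were tight and separate, and CCNB2 fell 3.05-fold (log2 fold change -1.61, SE 0.085, edgeR adjusted p = 5.55e-11). Its pseudogene CCNB2P1 had at most 2 counts in any library.

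CCNB1, which encodes the major mitotic cyclin B1, is not among the 10, because its deposited columns contradict each other. In the authors' deposited table of pair 2 (siLMNA 2 and siLacZ 2), CCNB1 has a raw count of 116702 in siLMNA beside a normalized value of 11702.6, and 6785 counts in siLacZ. The authors' deposited table of pair 1 lists CCNB1 more than once, with 75962 counts and a normalized value of 75961.9 in siLMNA, and in 1 of these rows the log2 fold change of 3.70 stands beside a statistic and standard error whose product is -1.91. No direction was drawn for CCNB1.

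WEE1 (ENSG00000166483, chr11:9573681-9593457, plus strand), the nuclear kinase that keeps CDK1 inactive, differed least. It read 38.8 and 38.1 CPM in siLacZ 1 and 2 and 32.7 and 32.6 CPM in siLMNA 1 and 2. The gap between groups, though small, was wider than the gap between libraries of a group, and WEE1 fell 1.18-fold (log2 fold change -0.24, SE 0.078, edgeR adjusted p = 0.0165). The call was lost with DESeq2 (adjusted p = 0.0782), with upper-quartile factors (edgeR adjusted p = 0.0808) and on leaving out any 1 of the 4 libraries (edgeR adjusted p from 0.0557 to 0.0885), the direction staying lower each time.

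Of the 3 CDC25 phosphatases, which remove the inhibitory phosphates from CDK1, CDC25C changed most and CDC25B least. CDC25C (ENSG00000158402, chr5:138285265-138338355, minus strand), which acts at the start of mitosis, was the lowest of the 10 in CPM, at 12.9 and 17.3 CPM in siLacZ and 4.12 and 3.84 CPM in siLMNA. Its siLacZ libraries lay further apart than those of any other of the 10, by 0.42 on the log2 scale, yet both exceeded the siLMNA libraries by more than that spread. CDC25C fell 3.80-fold (log2 fold change -1.93, SE 0.15, edgeR adjusted p = 8.64e-09). CDC25C shares 6421 bases of its span with FAM53C on the opposite strand, and since the use of strand is not given, reads in that stretch cannot be told apart. FAM53C had 3520 and 3983 counts in siLacZ and 3616 and 3481 in siLMNA, and CDC25C had 577 and 818 against 176 and 165.

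CDC25A (ENSG00000164045, chr3:48157146-48188402, minus strand), which also acts at the start of S phase, read 30.7 and 38.0 CPM in siLacZ and 17.2 and 17.4 CPM in siLMNA. The siLMNA libraries were nearly equal, and siLacZ 2 was the higher control. CDC25A fell 1.99-fold (log2 fold change -0.99, SE 0.10, edgeR adjusted p = 2.46e-07).

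CDC25B (ENSG00000101224, chr20:3786772-3806121, plus strand), held to be a starter phosphatase for CDK1 in G2, was the most abundant of the 10 in CPM. It read 180 and 184 CPM in siLacZ and 127 and 119 CPM in siLMNA. The groups were separate by a smaller margin, and CDC25B fell 1.48-fold (log2 fold change -0.57, SE 0.070, edgeR adjusted p = 2.19e-06), with an edgeR adjusted p of 0.802 against a minimum change of 1.5-fold.

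PLK1 (ENSG00000166851, chr16:23677656-23690367, plus strand), the polo kinase that activates CDC25C and later acts at centrosomes and kinetochores, read 60.1 and 72.7 CPM in siLacZ and 15.7 and 18.5 CPM in siLMNA. Library 2 was the higher of each group, and the groups lay well apart. PLK1 fell 3.89-fold (log2 fold change -1.96, SE 0.10, edgeR adjusted p = 4.37e-11).

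AURKA (ENSG00000087586, chr20:56369389-56392337, minus strand), the centrosome kinase that activates PLK1, read 57.6 and 62.3 CPM in siLacZ and 14.7 and 17.2 CPM in siLMNA. It was close to PLK1 in level and in size of change, falling 3.75-fold (log2 fold change -1.91, SE 0.091, edgeR adjusted p = 1.45e-11). The AURKA pseudogenes AURKAP1 and AURKAP2 had at most 2 counts in any library.

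CDC20 (ENSG00000117399, chr1:43358955-43363203, plus strand), the APC/C activator that starts anaphase, differed most. It had 5205 and 6134 counts in siLacZ and 1199 and 1338 counts in siLMNA, or 116 and 130 CPM against 28.1 and 31.1 CPM. The lower siLacZ library was still several times above the higher siLMNA library. CDC20 fell 4.16-fold (log2 fold change -2.06, SE 0.083, edgeR adjusted p = 1.67e-12). Its pseudogene CDC20P1 had at most 8 counts in any library.

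**Figure D3:**
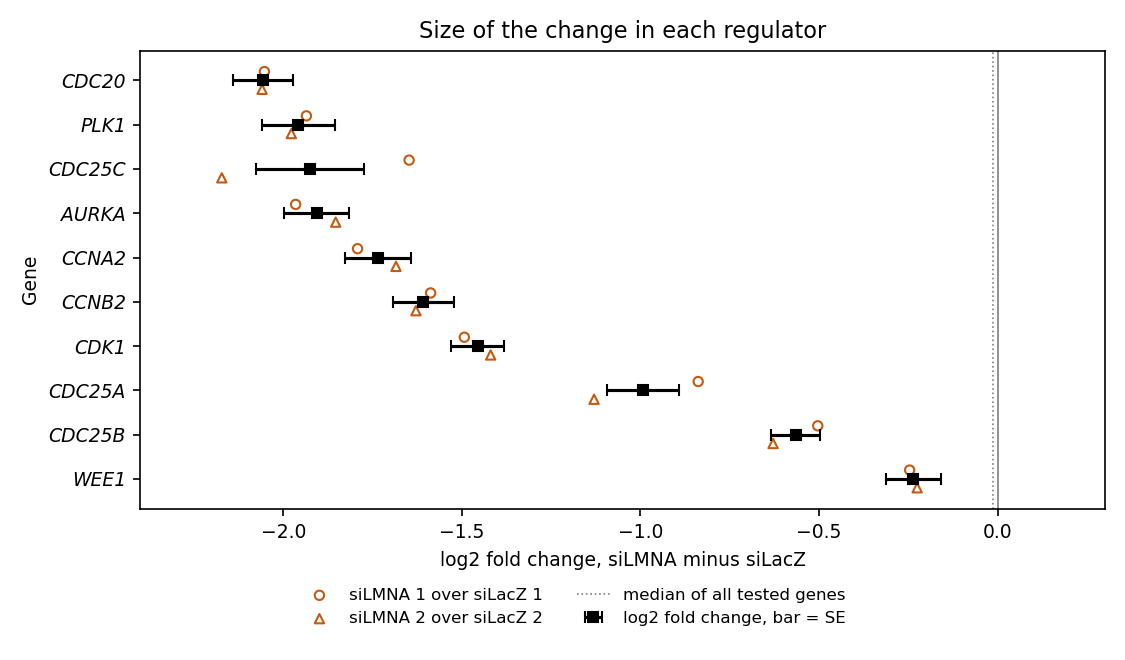
Log2 fold change (siLMNA minus siLacZ) of the 10 regulators, ordered by size; squares are the edgeR estimates with SE bars, open circles and triangles the ratios of libraries 1 and 2, and the dotted line the median of all tested genes (-0.01). CDC25C shows the widest gap between its library ratios (-1.65 and -2.17), and WEE1 (-0.24) lies nearest to 0.

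Libraries of the same number gave like values for most of the 10. The log2 ratio of siLMNA 1 to siLacZ 1 and that of siLMNA 2 to siLacZ 2 were -1.49 and -1.42 for CDK1 and -2.05 and -2.06 for CDC20. They were furthest apart for CDC25C, at -1.65 and -2.17, and for CDC25A, at -0.84 and -1.13. In 8 of the 10 genes siLacZ 2 read above siLacZ 1, the exceptions being CDK1 and WEE1. The authors' deposited tables, which compare 1 library with 1 library, give log2 fold changes of -1.97 and -1.91 for AURKA, -2.06 and -2.12 for CDC20 and -0.25 and -0.28 for WEE1.

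To compare genes roughly, levels were divided by the length of the longest annotated transcript in kilobases. Which transcripts were expressed is not known here, so the order between genes depends on that choice of length. CDC20 led the siLacZ libraries at 69.3 ± 5.29 CPM per kb (SD, n = 2), followed by CDC25B at 50.7 ± 0.875 and CDK1 at 45.9 ± 0.295. PLK1 (29.8 ± 4.00 CPM per kb) and AURKA (26.7 ± 1.48) came next and did not differ beyond their spread. AURKA and CCNA2 (23.4 ± 1.62) were separate by their library ranges, and CCNB2 (17.8 ± 0.605), WEE1 (11.2 ± 0.157), CDC25A (9.09 ± 1.37) and CDC25C (7.10 ± 1.46) followed, the last 2 overlapping.

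In the siLMNA libraries the order was different. CDC25B was highest at 34.2 ± 1.51 CPM per kb (SD, n = 2), while CDK1 (16.7 ± 0.497) and CDC20 (16.7 ± 1.22) could not be told apart. WEE1, in place 8 of the 10 in siLacZ, was in place 4 in siLMNA at 9.51 ± 0.035 CPM per kb. PLK1, AURKA and CCNA2 (7.67 ± 0.872, 7.12 ± 0.785 and 7.02 ± 0.855) overlapped one another, and CDC25C was again lowest at 1.87 ± 0.0932.

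The unequal losses changed the proportions among the regulators, which were read as counts of each gene per count of CDK1 within a library, a measure that needs no scaling between libraries. WEE1 stood at 0.432 and 0.428 counts per CDK1 count in siLacZ 1 and 2 and at 1.03 and 0.979 in siLMNA 1 and 2, a 2.33-fold higher ratio of inhibitory kinase RNA to its target's RNA. CDC25B stood at 2.00 and 2.07 against 3.98 and 3.58 (log2 difference 0.89), and CDC25A at 0.342 and 0.427 against 0.539 and 0.522 (0.47). For these 3 genes both siLMNA libraries had the higher ratio. The CDC25A difference was 0.31 without siLacZ 1.

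The other 6 ratios were lower in both siLMNA libraries. The log2 difference was -0.60 for CDC20, -0.50 for PLK1, -0.45 for AURKA, -0.45 for CDC25C, -0.28 for CCNA2 and -0.15 for CCNB2. Leaving out 1 library moved some of these: CDC25C to -0.24 without siLacZ 2, and CCNA2 to -0.19 without siLMNA 1. CCNB2 thus stayed nearest to CDK1, at 0.483 and 0.512 counts per CDK1 count in siLacZ and 0.453 and 0.443 in siLMNA. The groups did not overlap in any of the 9 ratios. All 9 share the counts of CDK1, so they are not separate results, and the share of all genes without such overlap was not counted. The exact two-sided permutation test gave p = 0.333 for each. That is the smallest p that 2 libraries against 2 allow, so no ratio can pass a threshold of 0.05 by this test.

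**Figure D4:**
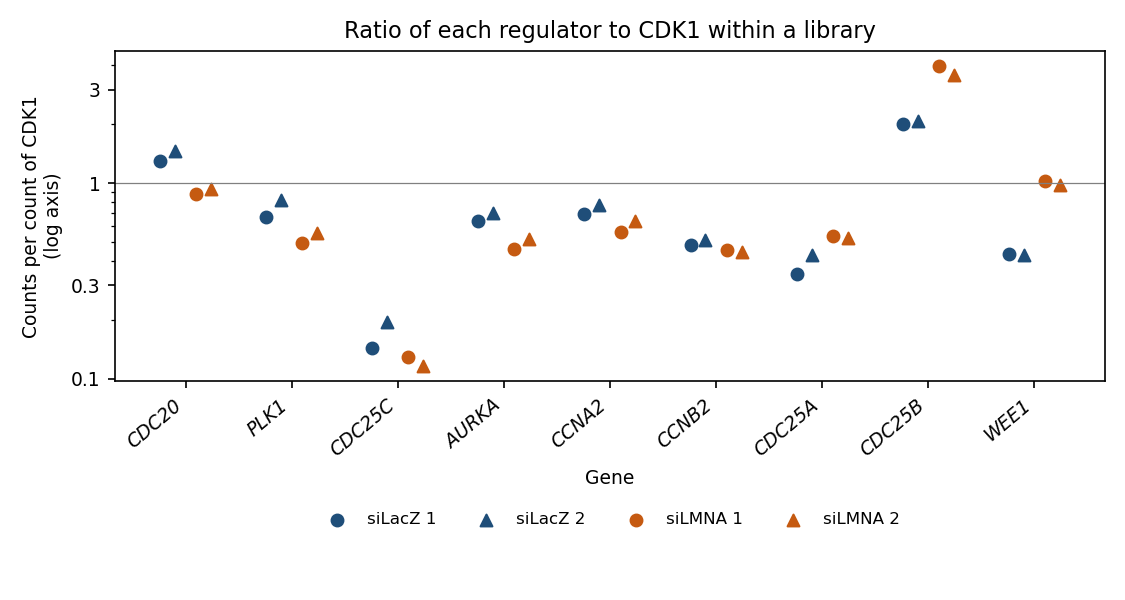
Counts of each gene per count of CDK1 in the same library, on a log axis, for the 4 libraries (blue siLacZ, orange siLMNA, circles replicate 1, triangles replicate 2); genes run from the largest fall in the ratio to the largest rise. WEE1 moves from 0.432 and 0.428 to 1.03 and 0.979, while CDC20 moves from 1.30 and 1.46 to 0.880 and 0.936.

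Around these 10, the genes that act on or with them were read from 8 lists of 91 genes, 90 of which were tested. Of those, 68 fell, 9 rose and 13 did not pass, with a median log2 fold change of -0.71, beside 27.8% called lower and a median of -0.01 over all tested genes. These lists too were chosen with earlier results of these data known. Of the 9 CDK1 partners and members of the CDK-activating kinase, 8 fell and none rose (median -1.09). Among them CCNA1, the second A-type cyclin, read 16.5 and 16.7 CPM in siLacZ and 2.79 and 2.28 CPM in siLMNA (log2 fold change -2.71, SE 0.14, edgeR adjusted p = 3.90e-11). CKS2, a small subunit that docks CDK1 to its substrates, read 41.6 and 41.8 against 16.6 and 17.1 CPM (log2 fold change -1.31). CCNB3, at under 1 CPM in every library, was the gene that did not pass.

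In the checkpoint list, 7 of 9 tested genes fell and 2 rose (median -0.52). PKMYT1, the membrane-bound kinase that inhibits CDK1 alongside WEE1, fell from 21.4 and 24.1 CPM to 7.42 and 8.31 CPM (log2 fold change -1.53, SE 0.11, edgeR adjusted p = 3.28e-09). The ratio of WEE1 to PKMYT1 counts, chosen after its values were seen, was 1.81 and 1.58 in siLacZ and 4.41 and 3.92 in siLMNA. CDKN1A, the CDK inhibitor p21, rose from 200 and 206 CPM to 622 and 541 CPM (log2 fold change 1.52, SE 0.076, edgeR adjusted p = 2.39e-11). GADD45A, a stress-response gene whose product can inhibit CDK1, also rose, from 26.0 and 28.4 to 58.1 and 62.0 CPM (log2 fold change 1.14).

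Polo and Aurora kinases and their activators divided by member: 8 of 11 fell, 2 rose and AURKC, at under 1 CPM, did not pass (median -1.42). BIRC5, the survivin subunit of the chromosomal passenger complex, fell from 64.6 and 71.4 CPM to 16.8 and 18.4 CPM (log2 fold change -1.95), and TPX2, which activates AURKA on the spindle, from 149 and 170 to 43.9 and 48.8 CPM (-1.78). The genes that rose were PLK2, from 31.1 and 28.4 to 65.9 and 59.1 CPM (log2 fold change 1.07), and PLK3, from 22.0 and 24.9 to 50.8 and 43.3 CPM (1.01). Both are polo family kinases with roles in stress responses, and the direction was opposite to that of PLK1.

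The Greatwall and PP2A-B55 genes, which control the phosphatase that opposes CDK1, divided evenly: 4 rose, 4 fell and 3 did not pass (median 0.00), beside 26.5% of all tested genes called higher and 27.8% called lower. MASTL, the Greatwall kinase, fell from 16.4 and 17.2 to 9.69 and 9.77 CPM (log2 fold change -0.79), and ENSA, its substrate and an inhibitor of PP2A-B55, from 253 and 244 to 148 and 144 CPM (-0.76). Of the phosphatase's own genes, the B55 subunit PPP2R2A read 108 and 111 CPM in both groups and did not pass. PPP2R2C rose from 15.0 and 16.8 to 22.9 and 26.4 CPM (log2 fold change 0.63), a call lost without siLacZ 1 (log2 fold change 0.54, edgeR adjusted p = 0.0501), and PPP2CB, a catalytic subunit, from 81.5 and 84.6 to 109 and 106 CPM (0.37). PPP2R2B was called higher at low levels, 0.313 and 0.550 CPM in siLacZ and at most 2.02 CPM in siLMNA.

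The core subunits of APC/C shifted less than its activator CDC20. Of 14 subunits 11 fell, 3 did not pass and none rose (median -0.45), with log2 fold changes from -0.94 to 0.06. ANAPC1, a scaffold subunit, fell from 101 and 113 CPM to 53.3 and 58.2 CPM (log2 fold change -0.94), and ANAPC5, another, from 154 and 159 to 81.7 and 86.3 CPM (-0.90). No subunit of the core reached the size of the fall in CDC20 (-2.06).

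Among the regulators of APC/C, its E2 enzymes and separase, 11 of 12 fell and 1 rose (median -1.36). PTTG1, the securin that restrains separase, fell from 73.9 and 72.9 CPM to 17.4 and 22.4 CPM (log2 fold change -1.88). BUB1B, the checkpoint protein BUBR1 that restrains CDC20, fell from 44.5 and 48.1 to 12.2 and 14.2 CPM (log2 fold change -1.81). The gene that rose was FZR1, the other activator of APC/C, which acts in late mitosis and G1, from 48.0 and 51.1 CPM to 99.2 and 91.3 CPM (log2 fold change 0.94, SE 0.076, edgeR adjusted p = 1.16e-08). Counts of CDC20 per count of FZR1, a ratio chosen after its values were seen, were 2.43 and 2.54 in siLacZ and 0.283 and 0.341 in siLMNA, a log2 difference of -3.00.

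Of 11 genes that control transcription of the G2 and mitotic program, 7 fell and 4 did not pass (median -0.63). FOXM1, a transcription factor for G2 and mitotic genes, fell from 57.3 and 77.9 CPM to 17.7 and 20.7 CPM (log2 fold change -1.82, SE 0.12, edgeR adjusted p = 9.18e-10). MYBL2, which joins the MuvB core to activate such genes, fell from 58.2 and 68.8 to 19.9 and 22.1 CPM (log2 fold change -1.59). The 4 that did not pass were LIN37, LIN52, E2F5 and RBL2.

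General cell cycle markers fell as well, so the lower levels were not particular to the mitotic regulators. Of 13 markers 12 fell (median -1.42, beside -1.67 for the 10 regulators). MKI67, which encodes the proliferation antigen Ki-67, read 409 and 539 CPM in siLacZ and 95.6 and 122 CPM in siLMNA (log2 fold change -2.12, SE 0.12, edgeR adjusted p = 9.83e-11). MCM6, a subunit of the replicative helicase used in S phase, fell from 91.6 and 101 to 23.9 and 26.7 CPM (log2 fold change -1.93). CCND1, the G1 cyclin D1, did not pass, at 309 and 327 CPM in siLacZ and 341 and 329 CPM in siLMNA.

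**Figure D5:**
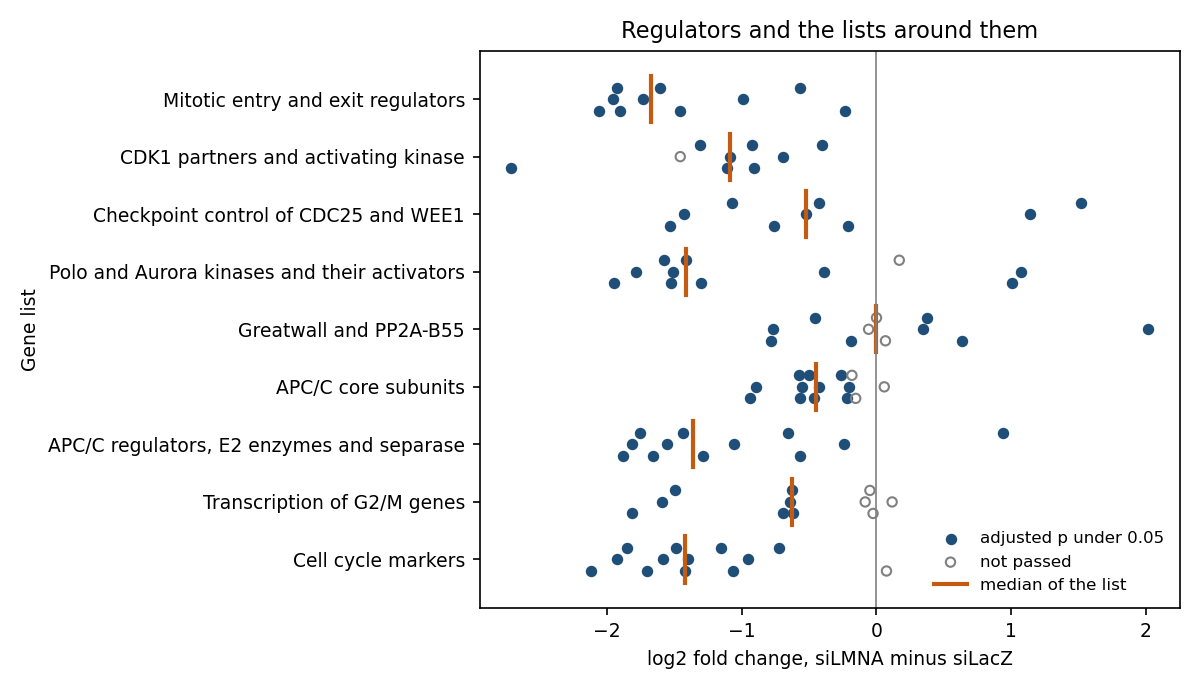
Log2 fold change (siLMNA minus siLacZ) of every tested gene in the 10 regulators and the 8 lists; filled points have an edgeR adjusted p under 0.05, open points did not pass, and orange bars are list medians. The median is -1.67 for the regulators and -1.42 both for the cell cycle markers and for the Polo and Aurora list, the Greatwall and PP2A-B55 list is spread about 0, and APC/C core subunits lie between -0.94 and 0.06.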

How the data were processed

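RNA was captured by poly(A) from 4 libraries of MCF10A cells, 2 per group. The authors deposited 2 tables, each pairing 1 siLMNA with 1 siLacZ library; per the file headers they hold raw read counts per gene, normalized counts (a signal, the count multiplied by a single factor for each library except in the contradicting rows named here), a log2 fold change, and its standard error and test statistic, which were used as scores to check rows. The authors' log2 values compare single libraries. Per the submitters' processing notes the build is hg38. Not given in the sources used here are the aligner, the counter, the annotation and strandedness. Of the deposited columns, 3 carry no name and were not used.

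Columns of each row were checked against each other (relative tolerance 1e-06; log2 tolerance 0.05 above 20 reads). They contradicted each other in 15 rows of 8 genes, and 6 genes whose counts were in doubt (CDH1, TWIST1, ZEB1, CLDN1, OCLN and CCNB1) were left out of totals and tests. Of 58051 identifiers, 57447 matched GENCODE 29 for coordinates and lengths. Totals of 42809595 to 46191091 counts make 3 counts, the limit a count of 0 allows, 0.0634 to 0.0702 TMM-scaled CPM, a floor that covers counting error alone. Same-group libraries were not duplicates: chi-square over degrees of freedom was 8.42 for siLacZ and 6.42 for siLMNA, so each was used as 1 sample.

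The test was edgeR 4.0.16 (R 4.3.3; quasi-likelihood, TMM, filterByExpr, group as the only term, Benjamini-Hochberg at 0.05). It gives no standard error, so each SE printed with a fold change was derived. It is the absolute log2 fold change divided by the square root of the F statistic. Of 18540 genes, 4911 rose and 5157 fell. DESeq2 1.42.0, other scalings, no filter, a minimum change of 1.5-fold, a replicate block, the doubtful rows kept, and each library left out were alternatives. The regulators and lists were chosen with earlier results of these data known. Named genes were all 10 regulators, LMNA and, per list, the 2 called genes of largest change with a mean of at least 5 CPM and up to 3 called against the majority; others are named where a count of 5 or fewer left them, chosen after their values were seen.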

Additional observations from a re-analysis of the deposited data

How the results depend on the processing

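All 10 regulators read lower in siLMNA under each of the 12 alternatives (120 values), and 8 of those values lost the call: CDC25B and WEE1 against a minimum change of 1.5-fold, and WEE1 under DESeq2, under upper-quartile factors and without each library. The number of regulators called was 9 with DESeq2, 9 with upper-quartile factors, 8 against the minimum change and 9 without any 1 library. Over all genes, 10068 passed; 3846 did against a minimum change of 1.5-fold, and 6303 (without siLacZ 2) to 8963 (without siLMNA 1) with 1 library left out. Of 77 pathway genes that passed, 48 did against the minimum change. Among the 23 named pathway genes and LMNA, 4 of 288 values lost the call and 0 changed sign: MASTL (edgeR adjusted p = 0.0501), PPP2R2C (0.407) and PPP2CB (1.00) against the minimum change, and PPP2R2C without siLacZ 1. With library totals only, the median of all genes moved to -0.11.

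Deviations of same-numbered libraries had a correlation of -0.034 over all tested genes. That value cannot tell whether libraries of the same number were prepared together, and the labels do not say. With the replicate block, 9963 genes passed and all 10 regulators still fell. With a library left out, the lone library of its group is assumed to vary like the other group. Groups of 2 limit every error estimate here, and transcript levels say nothing of protein or of kinase activity. Depth was not limiting for these 10, whose lowest library value was 165 counts, for CDC25C.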
